A study of Mus musculus with 17 samples.

Results

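The Dlk1-Dio3 locus of mouse chromosome 12 was followed through 5 of its genes, Dlk1, Meg3, Rian, Mirg and Dio3, in 12 RNA-seq libraries of a mouse series on supratentorial ependymoma and the YAP fusion proteins that drive it. The 5 genes were taken by symbol from the deposited count tables, which list 53090 rows, and each was found once on chromosome 12 and on no scaffold under the same symbol. They were chosen because of their values in these same groups, so their levels and fold changes are given as a description with no test. All 5 were among the 18418 genes that reached 1 CPM in 2 or more libraries, Dio3 because of its level in 1 group and part of another. CPM is a count scaled to the size of its library, after TMM correction for the levels given here and before it for this filter.

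YAP-M tumours, with 4 libraries, were brain tumours that arose after in utero electroporation, the delivery of plasmid into the embryonic forebrain, with the fusion construct YAP-M. YAP-M-dIDR, with 3 libraries, carried YAP-MΔIDR, a construct named for the lack of an intrinsically disordered region. Its labels name brain tumour tissue as the source but ES-derived neural progenitor cells as the tissue, so its material is not settled. The SVZ group held 3 wild-type libraries titled for the subventricular zone, although their tissue field also reads brain tumour. NSC-YAP, with 2 libraries, consisted of YAP-overexpressing neural progenitors grown from ES (embryonic stem) cells, and the labels do not say how many lines or clones they came from. Age, sex and strain are not given in the labels, and no label ties the replicates to separate animals or cultures, so p-values measure only the spread between these samples.

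Imprinted genes are expressed mainly from the copy inherited from 1 parent. At this locus Dlk1, Rtl1 and Dio3 are expressed from the paternal copy and code for proteins, whereas Meg3, Rian and Mirg are noncoding RNAs of the maternal copy, read in the same direction and host to snoRNAs and a large cluster of miRNAs. Methylation of a control region upstream of Meg3 keeps the noncoding RNAs silent on the paternal copy, and in cultured pluripotent cells the maternal copy can lose their expression as well. Dlk1 is a membrane protein related to Notch ligands, and Dio3 is the deiodinase that inactivates thyroid hormone.

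The 3 stretches of sequence upstream of the genes' starts are shown because the groups differed in which of these genes gave reads at all. In the files, whose build is mm10, Meg3 (ENSMUSG00000021268) spans chr12:109541001-109571726, Rian (ENSMUSG00000097451) chr12:109603940-109661716 and Dio3 (ENSMUSG00000075707) chr12:110279068-110281097, all on the plus strand. The stretches come from RefSeq (GRCm38.p6) at chr12:109540746-109540995 for Meg3, chr12:109603695-109603939 for Rian and chr12:110278980-110279067 for Dio3, plus strand, and each ends before the start of the gene in both annotations. Capitals mark CG dinucleotides, the TEAD core motif GGAATG and the cyclic AMP response element TGACGTCA, both motifs searched on both strands; the element TGACGTCA itself holds a CG.
Meg3: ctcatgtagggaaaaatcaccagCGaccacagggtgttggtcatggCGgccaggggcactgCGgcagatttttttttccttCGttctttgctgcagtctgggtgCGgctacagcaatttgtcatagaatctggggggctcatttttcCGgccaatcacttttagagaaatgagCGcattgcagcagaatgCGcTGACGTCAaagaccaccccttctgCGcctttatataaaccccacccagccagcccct
Rian: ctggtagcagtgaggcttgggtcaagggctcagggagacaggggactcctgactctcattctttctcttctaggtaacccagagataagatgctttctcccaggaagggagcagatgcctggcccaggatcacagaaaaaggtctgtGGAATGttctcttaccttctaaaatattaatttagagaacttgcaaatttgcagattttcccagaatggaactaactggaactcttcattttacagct
Dio3: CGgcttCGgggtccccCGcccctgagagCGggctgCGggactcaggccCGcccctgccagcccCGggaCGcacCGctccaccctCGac
The stretch before Meg3 held 10 CG and 1 TGACGTCA, that before Rian held no CG and 1 GGAATG, and that before Dio3 held 10 CG in 88 bases. Of all 32851 RefSeq windows of 300 bases around gene starts, 14.7% held GGAATG and 1.79% held TGACGTCA, and the median window had 7 CG. Windows of that size had 25 CG at Dio3, 13 at the first start of Meg3, 9 at Dlk1 and 0 at Rian. These are matches of letters and show no binding or methylation, neither of which was measured here.

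The locus differed most plainly in the NSC-YAP cells, where Dlk1 was read at the level of SVZ while the other 4 genes gave 5 counts in all over both libraries. In YAP-M tumours and YAP-M-dIDR libraries all 3 noncoding RNAs were present, at levels below those of SVZ. Dio3 had its highest level in the YAP-M-dIDR libraries.

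**Figure D1:**
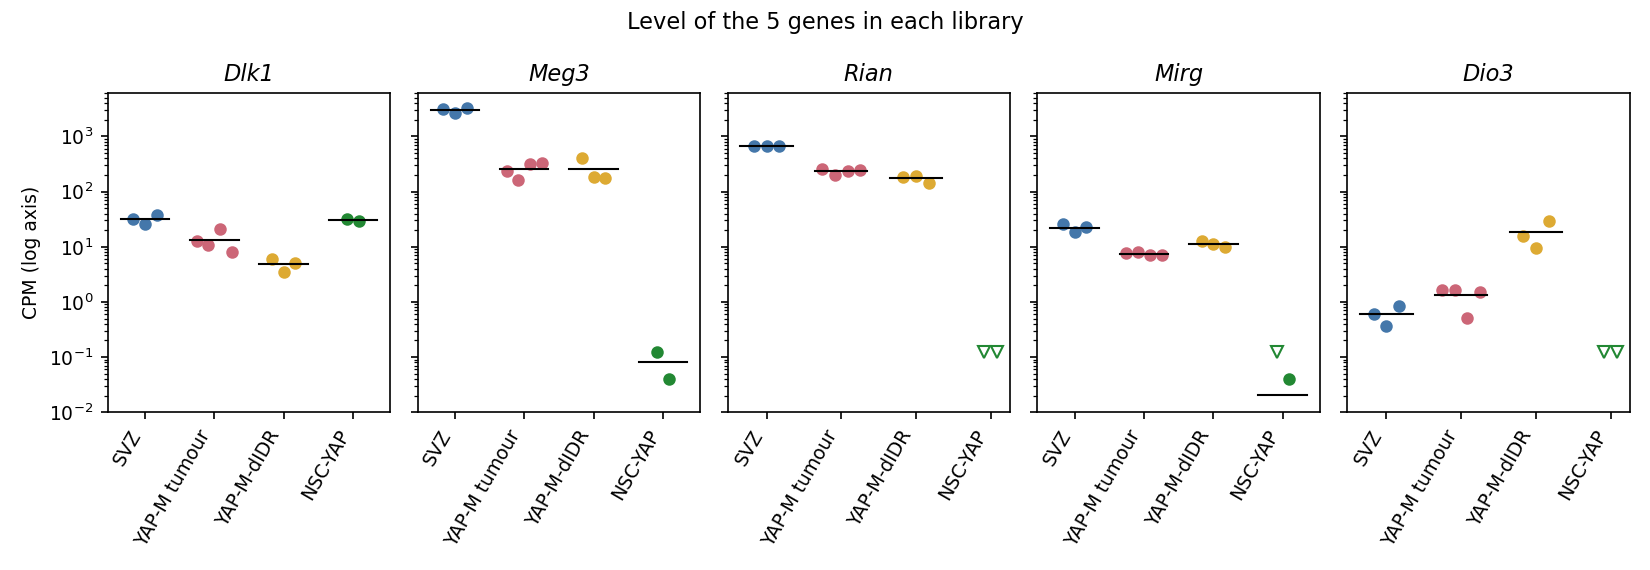
CPM of each gene (log axis) in each library, by group. Points are libraries, black lines are group means, and open triangles stand at the level of 3 counts for libraries with no count. In NSC-YAP, Dlk1 lies at 29.0 and 32.3 CPM while Rian and Dio3 have no count.

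Dlk1 (ENSMUSG00000040856, chr12:109452823-109463336, plus strand) gave 31.3, 25.3 and 37.5 CPM in the SVZ libraries and 32.3 and 29.0 CPM in NSC-YAP. In the YAP-M tumours it gave 12.9, 10.8, 21.4 and 8.09 CPM, and in YAP-M-dIDR 6.02, 3.56 and 4.99 CPM. The order was thus SVZ and NSC-YAP, whose ranges overlapped, then YAP-M tumours, then YAP-M-dIDR, with no overlap between these steps. Log2 fold changes fitted by edgeR are given ± an SE derived from its F statistic. They were -1.24 ± 0.29 for YAP-M tumour against SVZ, -2.69 ± 0.34 for YAP-M-dIDR against SVZ and 1.45 ± 0.31 for YAP-M tumour against YAP-M-dIDR. Against NSC-YAP they were -1.21 ± 0.32 for the tumours and -2.66 ± 0.36 for YAP-M-dIDR.

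Meg3, the first of the noncoding RNAs, was the most abundant member in SVZ, with 3078, 2688 and 3321 CPM. It gave 239, 165, 312 and 329 CPM in the YAP-M tumours and 406, 187 and 174 CPM in YAP-M-dIDR. The tumour and YAP-M-dIDR ranges overlapped, and both lay far under SVZ, with log2 fold changes of -3.54 ± 0.32 and -3.57 ± 0.36. Without YAP-M-dIDR replicate 1, its highest library, the latter was -4.07. In NSC-YAP, Meg3 had 3 and 1 counts. By the ratio of counts it was 3182 times higher in the tumours (exact 95% counting interval 1243 to 11680) and 3161 times higher in YAP-M-dIDR (1234 to 11603) than in NSC-YAP. These intervals cover counting error only.

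Rian, which hosts many snoRNAs, gave 660, 669 and 673 CPM in SVZ, 260, 201, 234 and 248 CPM in the tumours and 186, 194 and 144 CPM in YAP-M-dIDR. No count fell on it in NSC-YAP. The 4 groups did not overlap, in that order. The log2 fold change was -1.5005 ± 0.12 for the tumours against SVZ, -1.93 ± 0.14 for YAP-M-dIDR against SVZ and 0.43 ± 0.12 between tumours and YAP-M-dIDR. Against a floor of 3 counts over the NSC-YAP group, Rian was at least 3855-fold higher in the tumours, 2854-fold higher in YAP-M-dIDR and 10908-fold higher in SVZ.

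Mirg (ENSMUSG00000097391, chr12:109729764-109749460, plus strand), whose span holds 14 miRNA hairpins, gave 25.9, 18.6 and 22.4 CPM in SVZ. In YAP-M-dIDR it gave 12.6, 11.4 and 10.1 CPM and in the tumours 7.62, 8.08, 7.04 and 7.16 CPM, so that the tumours lay below YAP-M-dIDR, the reverse of Rian. A single count was found in NSC-YAP, and by the ratio of counts Mirg was 367 times higher in the tumours (95% counting interval 65.7 to 14530) and 558 times higher in YAP-M-dIDR (99.9 to 22081). Log2 fold changes were -1.58 ± 0.17 and -0.97 ± 0.18 for the tumours and YAP-M-dIDR against SVZ, and -0.60 ± 0.17 between the tumours and YAP-M-dIDR.

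Dio3 had the widest gap between YAP-M-dIDR and the tumours among the members. It gave 0.598, 0.359 and 0.8295 CPM in SVZ, 1.66, 1.67, 0.512 and 1.52 CPM in the tumours, and 15.6, 9.41 and 29.4 CPM in YAP-M-dIDR, with none in NSC-YAP. YAP-M-dIDR lay above every library of the other groups, by a log2 fold change of 4.93 ± 0.58 against SVZ, and the tumours lay 3.75 ± 0.47 below YAP-M-dIDR (log2 fold change -3.75). The tumour and SVZ ranges overlapped because of tumour replicate 3, and the log2 fold change between them was 1.18 ± 0.54. Against the floor of 3 counts in NSC-YAP, Dio3 was at least 21.9-fold higher in the tumours, 297-fold higher in YAP-M-dIDR and 9.74-fold higher in SVZ.

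Against SVZ, 4 of 5 members in the tumours and 5 of 5 in YAP-M-dIDR had ranges that did not overlap; among all genes tested, 54.7% and 56.5% were called in either direction (edgeR adjusted p below 0.05 with a change of 2-fold or more). Between tumours and YAP-M-dIDR, 4 of 5 did not overlap, where 16.4% of all genes were called. Against NSC-YAP, 5 of 5 members did not overlap in either the tumours or YAP-M-dIDR (50.4% and 47.8% of all genes called), and between NSC-YAP and SVZ 4 of 5 did not (45%). The 3 comparisons with SVZ share the SVZ libraries. Ranges that do not overlap and calls are unlike measures, and the share of all genes without overlap was not computed. A call needs a change of 2-fold, which Rian and Mirg did not reach between tumours and YAP-M-dIDR. Mirg did not reach it in YAP-M-dIDR against SVZ either. Since the members were chosen on these differences, nothing is read from these counts.

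Per length of gene the order of the members changed between groups. SVZ had a mean of 167 CPM per kb for Meg3, 36.6 for Rian, 5.55 for Dlk1, 3.06 for Mirg and 0.293 for Dio3. In the tumours Meg3 (9.10 to 18.2 CPM per kb) and Rian (11.05 to 14.2) overlapped, followed by Dlk1 at 2.35, Mirg at 1.03 and Dio3 at 0.660. In YAP-M-dIDR, Meg3 (9.60 to 22.4), Rian (7.87 to 10.6) and Dio3 (4.64 to 14.5) overlapped, and Mirg at 1.56 lay above Dlk1 at 0.859. In NSC-YAP, Dlk1 stood at 5.42 CPM per kb, Meg3 at 0.0045, Mirg at 0.0028 and the others at 0. The lengths are those of the files, 18089 bases for Meg3 and 2030 for Dio3, and assume that the whole gene model is transcribed.

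**Figure D2:**
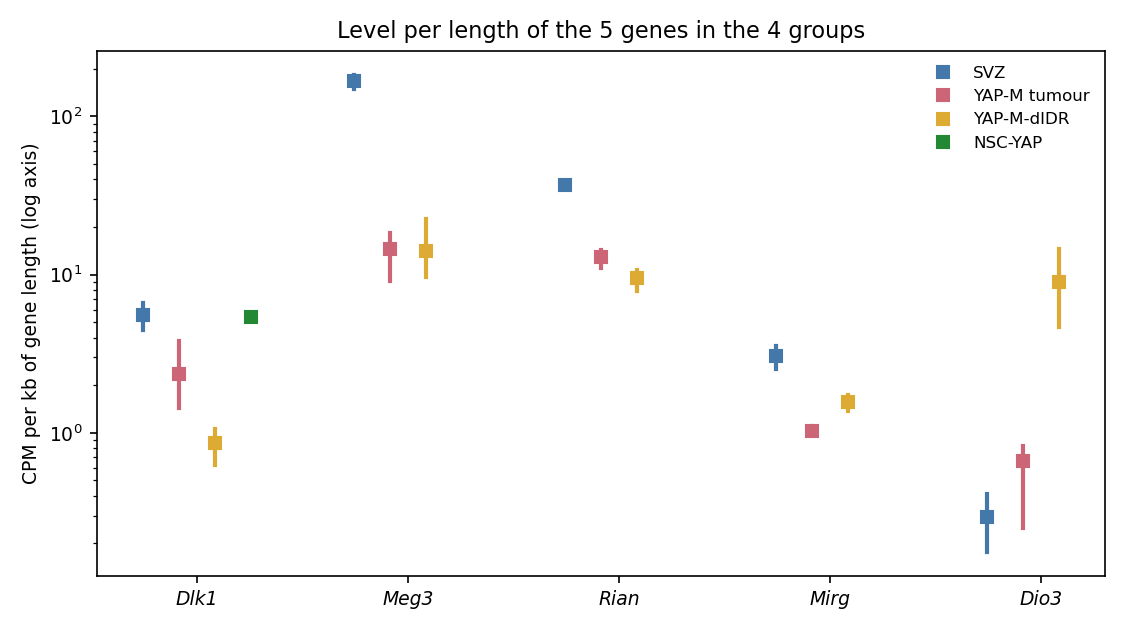
CPM per kb of gene length (log axis) for each gene and group; squares are group means and bars run from the lowest to the highest library, with genes of 4 or fewer counts in a group left out. Meg3 stands at 167 CPM per kb in SVZ and beside Rian in the tumours, and Dio3 stands at 8.95 in YAP-M-dIDR.

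The 3 noncoding RNAs did not keep their proportions. Rian reads were 21.4%, 24.9% and 20.3% of Meg3 reads in SVZ. They were 109%, 122%, 74.9% and 75.3% in the tumours and 45.9%, 103% and 82.6% in YAP-M-dIDR, all above SVZ. The same held for Mirg, at 0.735% ± 0.092 (SD, n = 3) of Meg3 reads in SVZ, 3.13% ± 1.27 (SD, n = 4) in the tumours and 5.003% ± 1.65 (SD, n = 3) in YAP-M-dIDR. Mirg was 5.90% to 7.01% of Rian reads in YAP-M-dIDR, above both the tumours (2.89% to 4.01%) and SVZ (2.77% to 3.93%), whose ranges overlapped.

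**Figure D3:**
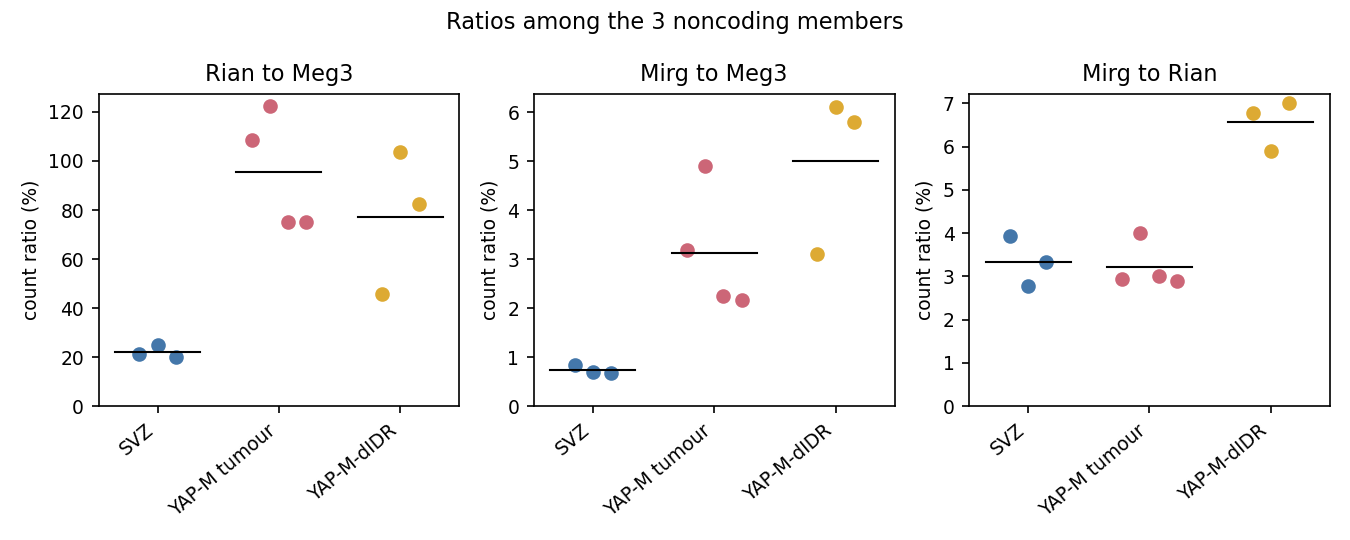
Count ratios in percent of Rian to Meg3, Mirg to Meg3 and Mirg to Rian in the SVZ, tumour and YAP-M-dIDR libraries; points are libraries and lines are means. The ratios to Meg3 are lowest in SVZ, and Mirg to Rian is highest in YAP-M-dIDR at 5.90% to 7.01%.

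Short rows inside Meg3 were compared with Meg3 as a whole. A scaffold copy of the locus carries 56 rows but none of the whole of Meg3, and there the rows of mir-1906-1, in the 5′ part of Meg3, and of mir-770 held counts, while their chromosome 12 rows held none; they were picked after their values were seen. The scaffold counts were set against the Meg3 count of chromosome 12. Whether that count includes these reads is not known, so the ratios need not be shares. By this ratio the mir-1906-1 row was 0.969% ± 0.127 in SVZ (SD, n = 3), 1.78% ± 0.380 in the tumours (n = 4) and 2.31% ± 0.536 in YAP-M-dIDR (n = 3). The mir-770 row went the other way, at 0.288% ± 0.0657, 0.160% ± 0.04999 and 0.0650% ± 0.0366. Its tumour and YAP-M-dIDR values rest on 1 to 19 counts a library. The other 2 rows with counts were MEG3_2, at 0.563% ± 0.0960 in SVZ, 0.9996% ± 0.207 in the tumours and 1.08% ± 0.359 in YAP-M-dIDR, and AC152063.1 on the opposite strand, whose ranges overlapped between these groups, at 3.196% ± 0.372, 3.22% ± 0.471 and 3.45% ± 0.294. The use of strand in counting is not given, so the reads of AC152063.1 could be of Meg3. In NSC-YAP all 4 rows were at 0. These reads are of long RNA over those stretches and do not measure the miRNAs.

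The miRNAs themselves were not measured. RefSeq places 58 hairpins with 114 mature arms between Dlk1 and Dio3, and in the files 35 of 61 miRNA rows had no count and the highest had 31 counts over all libraries. The arms carry 104 different seeds (bases 2 to 8), of which 9 are shared by different mature sequences. The pairs below touch Mirg, which hosts all but miR-494-5p, and are printed to show how alike arms from 1 cluster can be at the seed, in capitals.
miR-453: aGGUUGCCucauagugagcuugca
miR-496a-5p: aGGUUGCCcaugguguguuca
miR-410-5p: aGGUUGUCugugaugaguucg
miR-494-5p: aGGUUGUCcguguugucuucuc
In each pair the letters after the seed differ.

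Rows that were not used to choose the members were tested across the locus. Of 113 other rows between Dlk1 and Dio3, 60 had no count and 5 were tested. AL591207.3 and Gm26945 passed the filter of 1 CPM in 2 libraries only through the group where they were highest. Counts of calls that include them are therefore description. Against SVZ, 3 of the 5 were lower and 1 higher in the tumours (28.9% and 25.8% of all genes), 3 lower and 2 higher in YAP-M-dIDR (29.6% and 27%), and 4 lower in NSC-YAP (27.6%). Rtl1, the paternally expressed gene derived from a retrotransposon, gave 10.3 ± 1.64 CPM in SVZ (SD, n = 3), 1.41 ± 0.630 in the tumours (n = 4), 1.39 ± 0.965 in YAP-M-dIDR (n = 3) and no count in NSC-YAP. It was lower than in SVZ by a log2 fold change of -2.87 ± 0.46 in the tumours (edgeR adjusted p = 0.000207) and -2.87 ± 0.51 in YAP-M-dIDR (0.000445), and at least 168-fold lower in NSC-YAP (edgeR adjusted p = 2.25e-05). Rtl1 has an antisense partner at this locus, and the use of strand in counting is not given. The minus-strand row Gm26906, inside Meg3, had no count, while its scaffold copy AC152063.1 held 1885 to 2307 counts a library in SVZ. Counting by strand would be expected to give both copies the same reads, so the reads of Rtl1 could come from either strand.

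The row next to Dio3, AL591207.3 on the opposite strand at chr12:110275385-110278172, was highest in YAP-M-dIDR as Dio3 was. It reached 1 CPM in no other group, so its calls against YAP-M-dIDR, given below, are description. It gave 2.56, 0.901 and 1.06 CPM there, against 0.297 to 0.482 CPM in the tumours and 0.460 to 0.8295 CPM in SVZ, with no count in NSC-YAP. The log2 fold change was -1.90 ± 0.42 for tumours against YAP-M-dIDR (edgeR adjusted p = 0.00531) and 1.31 ± 0.45 for YAP-M-dIDR against SVZ (0.0218). The latter call was lost without SVZ replicate 1 (0.0761), without SVZ replicate 2 (0.0659) and with a replicate block (0.0542), and the row holds 39 counts in SVZ. AC121872.2, an unnamed row on the minus strand between Mirg and Dio3, rose instead. It gave 137 ± 11.97 CPM in the tumours and 164 ± 17.9 in YAP-M-dIDR, against 50.1 ± 11.8 in SVZ and 44.3 ± 5.66 in NSC-YAP, and was higher than SVZ by 1.45 ± 0.16 and 1.71 ± 0.17 on the log2 scale (edgeR adjusted p = 9.07e-06 and 3.53e-06). The remaining rows, Gm26945 within Rian and B830012L14Rik, were highest in SVZ, at 1.32 and 1.55 CPM. Gm26945 reached 1 CPM only in SVZ, and B830012L14Rik only in SVZ and in YAP-M-dIDR replicate 1, so their calls against SVZ are description too. For B830012L14Rik the call in YAP-M-dIDR (-1.47 ± 0.58, edgeR adjusted p = 0.0384) was lost in 11 alternatives, with an adjusted p of 0.209 without SVZ replicate 3. Against NSC-YAP, 4 of the 5 rows were higher and none lower in the tumours and in YAP-M-dIDR (28.9% and 27.4% of all genes higher, 21.5% and 20.4% lower). Between tumours and YAP-M-dIDR, 2 were lower, AL591207.3 and B830012L14Rik (6.79% of all genes lower). B830012L14Rik was at -2.33 ± 0.67 (edgeR adjusted p = 0.0185). That call was lost without YAP-M-dIDR replicate 1 (0.102) and with the replicate block (0.0522).

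Outside the locus, Begain, a postsynaptic scaffold gene that is the nearest tested gene before Dlk1, had its highest level in SVZ. It gave 125 ± 7.69 CPM in SVZ (n = 3), 8.86 ± 3.79 in the tumours (n = 4), 5.64 ± 4.12 in YAP-M-dIDR (n = 3) and 2.39 ± 0.0822 in NSC-YAP (n = 2). Each was lower than SVZ, with log2 fold changes of -3.81 ± 0.49, -4.46 ± 0.57 and -5.70 ± 0.73 (edgeR adjusted p = 2.62e-05, 2.46e-05 and 4.12e-05). Wdr25 and Wars and, after Dio3, the dynein heavy chain gene Dync1h1 were called in no comparison, and the phosphatase subunit gene Ppp2r5c only in YAP-M-dIDR against SVZ (-1.11 ± 0.09, edgeR adjusted p = 9.05e-07). Of the 10 flanking rows tested, none was called between tumours and YAP-M-dIDR, where 16.4% of all genes were. Against SVZ, 1 was higher and 2 lower in the tumours, 1 and 4 in YAP-M-dIDR, and 0 and 2 in NSC-YAP. The shares of all genes were 25.8% and 28.9%, 27% and 29.6%, and 17.4% and 27.6%. Against NSC-YAP, 2 were higher and 0 lower in the tumours (28.9% and 21.5% of all genes), and 1 and 1 in YAP-M-dIDR (27.4% and 20.4%).

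**Figure D4:**
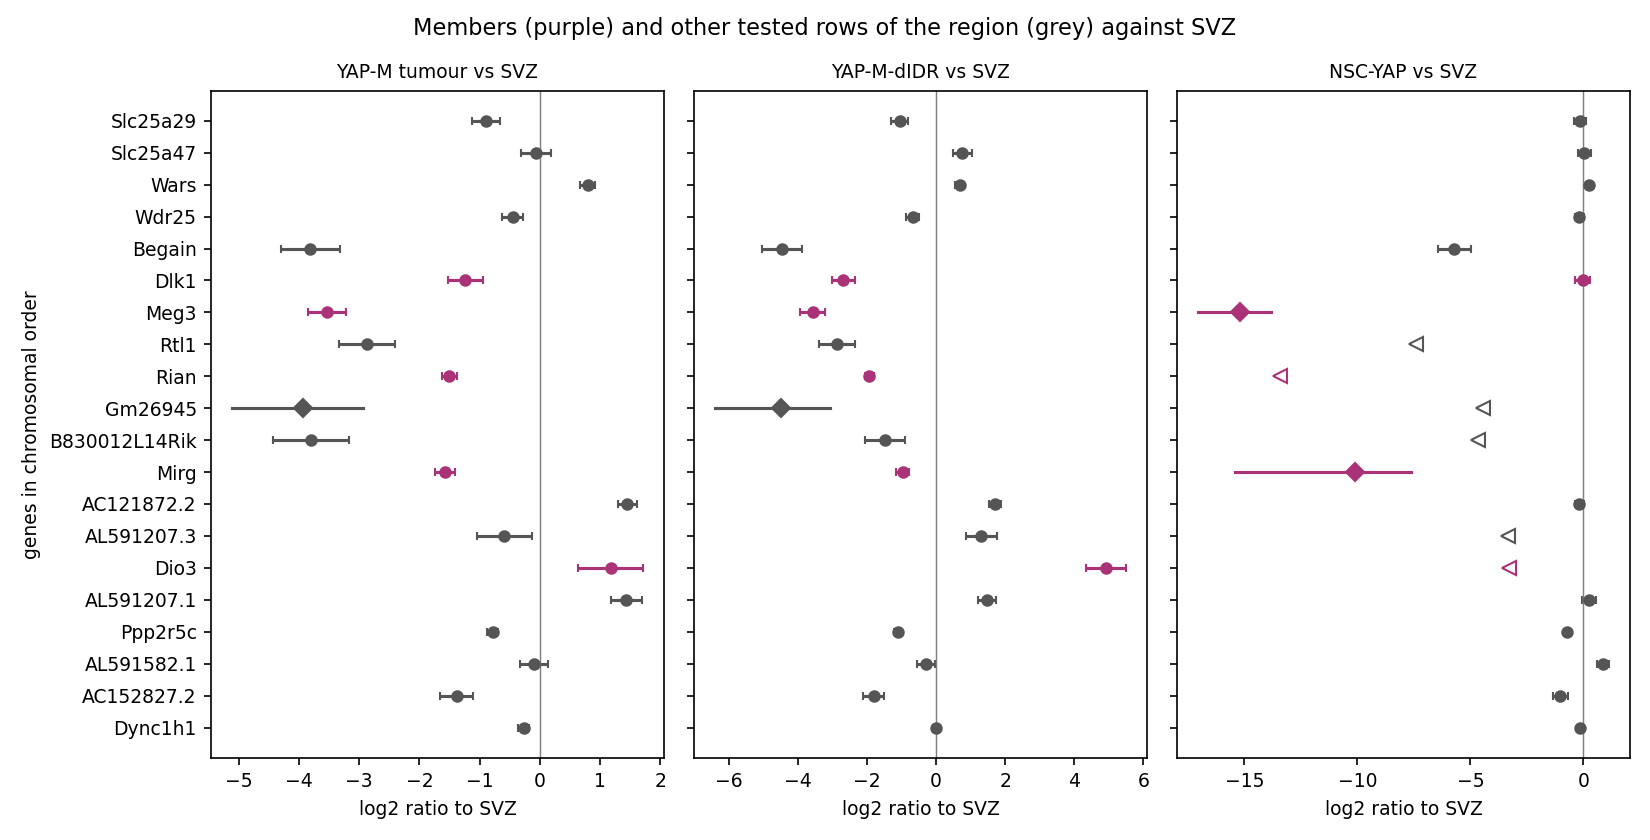
Log2 ratio to SVZ of the members (purple) and the other tested rows of the region (grey) in chromosomal order. Circles are fitted fold changes with SE, diamonds are count ratios with 95% counting intervals where 10 or fewer counts were found, and triangles are bounds for groups with no count. Begain, Meg3 and Rtl1 lie well below 0 in all 3 comparisons, whereas Dlk1 lies at -0.03 in NSC-YAP.

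Imprinted genes elsewhere did not follow a single direction. Of 42 listed genes 41 were tested. Against SVZ, 14 were higher and 17 lower in the tumours (median log2 fold change -0.39, -0.04 over all genes). The numbers were 15 and 18 in YAP-M-dIDR (-0.62, over all genes 0.00), and 9 and 20 in NSC-YAP (-0.89, -0.10 over all genes). Shares of all genes higher and lower were 25.8% and 28.9%, 27% and 29.6%, and 17.4% and 27.6% in the same order. The growth factor gene Igf2 gave 2866 ± 527 CPM in the tumours, 7826 ± 2206 in YAP-M-dIDR, 144 ± 35.3 in SVZ and 1.12 ± 0.377 in NSC-YAP. It was higher than SVZ by 4.31 ± 0.28 and 5.76 ± 0.31 on the log2 scale and lower in NSC-YAP by -7.00 ± 0.41 (edgeR adjusted p = 1.79e-07, 3.72e-08 and 1.47e-07). Peg10, a retrotransposon-derived gene, rose by 5.06 ± 0.30 and 4.32 ± 0.30 against SVZ in the tumours and YAP-M-dIDR (1.08e-07 and 2.43e-07) and was not called in NSC-YAP. The receptor adaptor gene Grb10 was lower in NSC-YAP than SVZ (-4.76 ± 0.25, 7.16e-08), as was Zdbf2, which had no count there. Between tumours and YAP-M-dIDR 12 of 41 were higher and 4 lower (9.62% and 6.79% of all genes). The median against SVZ in the tumours was -0.019 without tumour replicate 1.

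**Figure D5:**
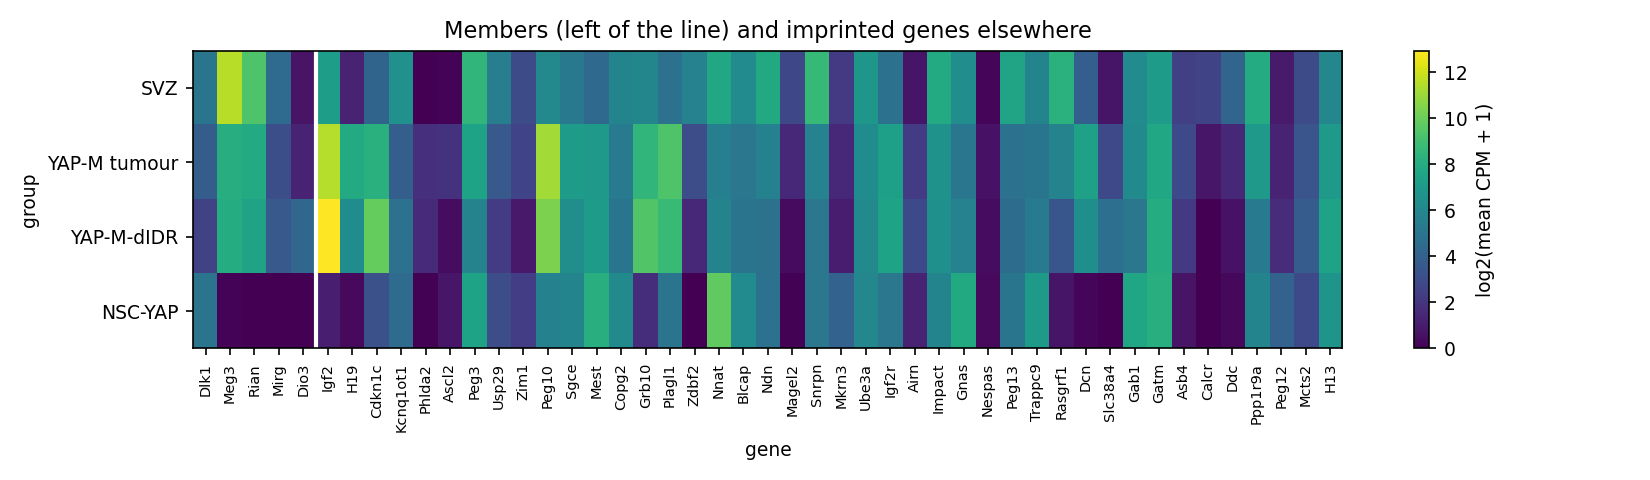
Colour gives log2(mean CPM + 1) of the members (left of the white line) and imprinted genes elsewhere in the 4 groups. NSC-YAP is near 0 for Meg3, Rian, Mirg, Dio3, Igf2 and H19 but not for Dlk1, Peg3 or Nnat.

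Regulators of imprinted methylation, of which 21 of 22 were tested, were called higher for 6 and lower for 4 in the tumours against SVZ, 7 and 7 in YAP-M-dIDR, and 7 and 1 in NSC-YAP. Of all genes, 25.8% were higher and 28.9% lower in the tumours, 27% and 29.6% in YAP-M-dIDR, and 17.4% and 27.6% in NSC-YAP. Uhrf1, which brings the maintenance methyltransferase to replicated DNA, rose in all 3 against SVZ, by 2.83 ± 0.18, 4.00 ± 0.19 and 3.01 ± 0.20 (edgeR adjusted p = 1.63e-07, 2.18e-08 and 3.21e-07). Zfp445, a zinc finger protein that protects imprints, was lower in the tumours and YAP-M-dIDR (-1.35 ± 0.10 and -1.66 ± 0.11, 4.85e-07 and 1.97e-07). The median over the list in the tumours was -0.18, and 0.19 with no filter on low counts.

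Among 20 genes of the Notch pathway, to which Dlk1 is related, 4 were higher and 8 lower against SVZ in the tumours, the same numbers in YAP-M-dIDR, and 13 and 6 in NSC-YAP, beside 25.8% and 28.9%, 27% and 29.6%, and 17.4% and 27.6% of all genes. The list's medians were -0.52, -0.31 and 1.72. The ligand gene Jag1 rose in the tumours and YAP-M-dIDR (3.23 ± 0.18 and 3.26 ± 0.18, edgeR adjusted p = 5.61e-08 and 4.87e-08). The receptor gene Notch1 rose in NSC-YAP (3.54 ± 0.17, 4.57e-08), with 290 CPM against 24.9 in SVZ. Only Hey1 and Dll1 were called between tumours and YAP-M-dIDR, both higher in the tumours (1.04 ± 0.16 and 1.78 ± 0.31, edgeR adjusted p = 0.000654 and 0.00111). In that comparison 9.62% of all genes were higher and 6.79% lower.

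Genes of the thyroid hormone pathway, in which Dio3 acts, were compared with SVZ in the same way. Of 17 tested, 1 was higher and 11 lower in the tumours and in YAP-M-dIDR alike (median log2 fold changes -2.40 and -2.87), and 1 and 9 in NSC-YAP (-1.43). Of all genes 25.8%, 27% and 17.4% were higher and 28.9%, 29.6% and 27.6% lower, with medians of -0.04, 0.00 and -0.10. Dio2, the deiodinase that activates the hormone, gave 119 ± 23.0 CPM in SVZ, 10.95 ± 3.95 in the tumours, 3.30 ± 1.496 in YAP-M-dIDR and 3.73 ± 0.324 in NSC-YAP. It was lower than SVZ by -5.16 ± 0.38 in YAP-M-dIDR (edgeR adjusted p = 3.90e-07) and higher in the tumours than in YAP-M-dIDR by 1.73 ± 0.33 (0.00203), where Dio3 lay the other way. The receptor gene Thra was lower than NSC-YAP by -3.25 ± 0.33 and -4.10 ± 0.38 in the tumours and YAP-M-dIDR (5.60e-06 and 2.89e-06).

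Cell markers moved with these groups, and their part in the differences was not tested. The summed CPM of 16 neuron markers ran from 6850 to 7266 in SVZ, 369 to 924 in the tumours, 533 to 661 in YAP-M-dIDR and 901 to 977 in NSC-YAP. In NSC-YAP most of that sum was Map2, at 687 CPM. There, 4 of the 16 markers were under 1 CPM in both libraries, Stmn2 at 0.0204, Gad2 at 0.122, Slc17a7 at 0.265 and Nefl at 0.612 CPM. Dcx was at 55.3 CPM (38.5 in SVZ), Gad1 at 52.4, Elavl3 at 41.2, Syn1 at 27.8, Tubb3 at 25.5 and Elavl4 at 21.7. Rbfox3, Snap25, Syt1, Nefm and Celf4 lay between 2.06 and 8.99 CPM. All markers but Map2 and Dcx were called lower in NSC-YAP than in SVZ. The 8 oligodendrocyte markers summed to 28748 to 34470 in SVZ, 670 to 3354 in the tumours, 362 to 1309 in YAP-M-dIDR and 2239 to 2344 in NSC-YAP. The 8 radial glia and neural stem cell markers ran the other way, from 285 to 322 in SVZ to 1951 to 2578, 2889 to 4040 and 4194 to 4410 in the same order. The 8 pluripotency markers summed to 7.64 to 8.93 in SVZ, 99.9 to 167 in the tumours, 63.5 to 93.0 in YAP-M-dIDR and 13.8 to 15.5 in NSC-YAP. Nearly all of the sum in the tumours and YAP-M-dIDR was Klf4, at 140 and 78.7 CPM. Of the 8 markers, 6 were under 1 CPM in every tumour library and 7 in every YAP-M-dIDR library. In NSC-YAP, Pou5f1, Zfp42, Dppa3 and Utf1 had no count, while Nanog and Klf4 were higher than in SVZ (3.24 ± 0.48 and 1.004 ± 0.23 on the log2 scale, edgeR adjusted p = 0.000113 and 0.00241). Mitochondrial genes took 12.7% to 17.0% of counts in SVZ and 4.91% to 7.05% elsewhere. In bulk RNA, fewer cells of a type and less RNA per cell cannot be told apart.

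The genes most like each member over the 12 libraries were found by the root mean square difference of centred log2(CPM + 1) profiles among 13221 candidates. For Dlk1 they were Fam13a, Scrn1 and Prnp (0.235 to 0.287), for Mirg Rin1, Tceal5 and Tspyl3 (0.194 to 0.227), and for Dio3 Uts2b, Kpna7 and Mettl7b (0.526 to 0.579). Meg3 was nearest to Mbp, Snhg11 and Mobp (0.713 to 0.986), and Rian to Stmn2, Rgs5 and Apod (0.806 to 0.898). Meg3 and Rian differed from each other by 0.914 on this measure, and Dlk1 from Meg3 by 3.90.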

How the data were processed

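RNA-seq of 12 mouse libraries was used; 5 ChIP-seq and CUT&RUN samples of the 17 were not analysed here. The deposited tables hold unnormalized counts per gene. TopHat2 and the mm10 build are named, per the submitters' processing notes. Not given in the sources used here are versions, which program counted the reads, whether strand was used and how reads with several positions were treated. Counts on the scaffold rows that copy Dlk1 and Rtl1 were identical to chromosome 12 in 12 of 12 libraries, so such reads were counted at both places. Totals were 20784130 to 25463303 counts. Rows on named chromosomes were summed by symbol, and 540 other rows were kept apart. Genes reaching 1 CPM, before TMM correction, in 2 or more libraries were fitted with the quasi-likelihood test of edgeR 4.0.16 (R 4.3.3). The fit used TMM factors of 0.828 to 1.13 and 1 coefficient per group over 12 libraries, with Benjamini-Hochberg adjustment over 18418 genes. The SE of a fold change was its absolute log2 value divided by the square root of the F statistic of that test. A level of 3 counts in a library is 0.110 to 0.146 CPM. On simulated data for YAP-M tumour against SVZ (17491 genes), 35 of 100 genes changed 2-fold and 76 of 100 changed 4-fold were recovered. A call needs a fitted change of 2-fold or more, so many genes changed by exactly 2-fold miss it whatever the power. No replicate pair agreed within sampling noise.

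The members and gene lists were chosen with earlier results of these data known. Named genes were the members, tested rows of the locus, up to 3 of the nearest named flanking genes on each side (2 after Dio3), up to 3 called genes per list and comparison with the smallest adjusted p, and the 3 genes most like each member; Zdbf2, H19, Peg3, Nnat, the rows inside Meg3 and further comparisons of genes already named were chosen after their values were seen. Marker sums for the lists not in the report were, in SVZ, tumours, YAP-M-dIDR and NSC-YAP: striatal neurons 1861 to 2115, 31.4 to 76.5, 9.10 to 27.7 and 16.0 to 16.6 CPM. Astrocytes had 4916 to 6330, 1944 to 2956, 543 to 1790 and 5621 to 5660. Microglia and macrophages had 249 to 339, 1357 to 2075, 1673 to 1787 and 41.3 to 43.4. Endothelial cells and pericytes had 313 to 396, 279 to 375, 261 to 266 and 201 to 214. Ependymal cells had 118 to 140, 22.7 to 41.0, 16.5 to 37.0 and 112 to 122. Choroid plexus had 972 to 2413, 23.5 to 307, 52.8 to 699 and 0.285 to 0.735. Fibroblasts had 201 to 245, 444 to 1512, 377 to 1592 and 51.6 to 54.3. Pluripotent cells had 7.64 to 8.93, 99.9 to 167, 63.5 to 93.0 and 13.8 to 15.5, mostly Klf4 in the tumours and YAP-M-dIDR. Skeletal muscle had 6.98 to 8.51, 9.90 to 15.0, 8.83 to 42.9 and 1.43 to 1.47. Blood had 1762 to 2512, 180 to 417, 33.4 to 97.7 and 2.04 to 2.69. Alternatives were other filters, median-ratio and quantile normalization, limma 3.58.1, DESeq2 1.42.0, a replicate block, the compared groups alone, summed scaffold rows, the adjusted p alone and leaving out each library.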

Additional observations from a re-analysis of the deposited data

Results flagged for a closer look

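In the group of 4 YAP-M tumours, 36 values were checked for a library set apart from the rest by the Dixon test, and 3 were; chance alone sets apart about 1 in 20. Dio3 was 0.512 CPM in tumour replicate 3 and 1.52 to 1.67 CPM in the others. Wars was 91.95 CPM in tumour replicate 4 and 121 to 126 CPM in the others. Mirg was 4.011% of Rian reads in tumour replicate 2 and 2.89% to 3.01% in the others.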

How the results depend on the processing

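Of 582 alternative values of members, 542 moved by less than 1 SD between replicates. Signs changed only for differences near 0, Dlk1 in NSC-YAP against SVZ in 10 of 20 settings and Meg3 between tumours and YAP-M-dIDR in 5 of 20. Where a value moved, the cause was not tested. Against NSC-YAP, quantile normalization gave log2 fold changes for Meg3 of 8.91 in the tumours (otherwise 11.56) and 8.73 in YAP-M-dIDR (11.52), and -12.11 for NSC-YAP against SVZ (-15.09). Leaving out 1 library gave 10.99 to 12.46, 10.96 to 12.43 and -16.00 to -14.53 in the same order. Over these settings Rian ranged over 10.90 to 12.01, 10.46 to 11.60 and -13.41 to -12.40, Mirg over 5.92 to 8.59, 6.52 to 9.21 and -10.20 to -7.50, and Dio3 over 3.44 to 4.77, 7.20 to 8.56 and -3.53 to -2.27, since a group at 0 was set to 3 counts however many libraries it held. The bound for Rian in NSC-YAP against SVZ (log2 -13.41) was -13.38 with no filter, -13.45 with a filter at 5 CPM and -13.43 with median-ratio scaling and with DESeq2. Rian in the tumours against SVZ was -1.37 with no filter and -1.51 to -1.34 with 1 library left out. Meg3 in YAP-M-dIDR against SVZ was -4.07 to -3.30. Quantile normalization and the block gave no value for genes at 0 or 1 count in NSC-YAP, and ratios to Meg3 in NSC-YAP, which rest on 3 and 1 counts of Meg3, are not reported.

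Medians of the gene lists moved in 43 of 480 values. With no filter, the regulators of imprinted methylation gave 0.19 (tumours against SVZ), -0.48 (tumours against NSC-YAP, -0.48 also with quantile normalization) and 0.41 (YAP-M-dIDR against SVZ). In the tumours against SVZ they gave -0.10 with median-ratio scaling, -0.11 with DESeq2, -0.073 with quantile normalization and -0.093 with the compared groups alone. Quantile normalization moved imprinted genes elsewhere to 0.43 (tumours against NSC-YAP) and to -0.40 (NSC-YAP against SVZ), thyroid genes to -3.38 (YAP-M-dIDR against SVZ) and -0.47 (YAP-M-dIDR against NSC-YAP); Notch genes moved to 1.81 (NSC-YAP against SVZ). It turned the sign of single genes: B830012L14Rik to -0.64 and AL591207.1 to -0.022 (tumours against NSC-YAP), and AC152827.2 to 0.52 (NSC-YAP against SVZ).

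With 1 library left out, medians in the tumours against SVZ were -0.46 to -0.019 for imprinted genes elsewhere, -0.20 to -0.072 for regulators, -0.60 to -0.35 for Notch genes and -2.81 to -2.16 for thyroid genes, the last being 0.18 to 0.73 against YAP-M-dIDR. In the tumours against NSC-YAP they were -0.74 to -0.57 for regulators, -1.66 to -1.45 for Notch genes and -0.27 to 0.10 for thyroid genes. In YAP-M-dIDR against SVZ they were -0.61 to -0.10 for Notch genes and -3.88 to -2.49 for thyroid genes, and -0.57 to -0.11 for thyroid genes against NSC-YAP. Notch genes in NSC-YAP against SVZ gave 1.59 to 1.81.

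Replicate numbers are shared between groups, but no label makes them pairs, and they were not taken as pairs. Deviations of same-numbered libraries correlated at -0.097 to 0.387 over 15 pairs, 4 of them over 0.1. The 38 pairs with unlike numbers correlated at -0.279 to 0.259, and 7 of 12 libraries correlated best with their own number. These values do not settle whether the numbers are pairs. With the replicate block, thyroid medians were -2.86 (tumours against SVZ), -0.32 (tumours against NSC-YAP) and -3.45 (YAP-M-dIDR against SVZ), and the Notch median was 1.64 (NSC-YAP against SVZ). Genes called in the tumours against YAP-M-dIDR were 1634 higher and 1304 lower with the block and 1772 and 1251 without it. By adjusted p alone, counts were 3789 and 4229 there, 6357 lower for the tumours (3969 with the fold) and 5821 lower for YAP-M-dIDR (3763) against NSC-YAP, and 5549 higher in NSC-YAP against SVZ (3213). With a filter at 5 CPM, 737 genes were lower in the tumours than in YAP-M-dIDR. The 2 NSC-YAP libraries and the few counts of Dio3 and of the unnamed rows limit the precision.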
